A study of Mus musculus with 12 samples.

Results

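The clustered histone genes were followed through total RNA-seq of bone marrow-derived macrophages (BMDMs), primary mouse phagocytes matured in culture. Members were the genes whose GENCODE M21 symbol starts with Hist1h, Hist2h, Hist3h or Hist4h. This rule gave 68 of the 48526 genes in the count table, and 2 further symbols of the 70 in the annotation were not analysed here. No expression value enters this rule, but the gene group was selected on fold changes between the 4 groups in these same libraries, so its counts and medians describe these data and are not independent support for a direction. They comprised 6 H1, 20 H2A, 17 H2B, 12 H3 and 13 H4 genes. The Hist1 cluster on chromosome 13 held 54 of them, Hist2 on chromosome 3 held 10, Hist3 on chromosome 11 held 3 and Hist4 on chromosome 6 held 1. Hist1h2aj, Hist1h2al and Hist3h2bb-ps were annotated as pseudogenes.

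Total RNA was sequenced from BMDMs of homozygous HSS9 KO mice and of WT controls. HSS9 is an enhancer region upstream of Tnf, which encodes an inflammatory cytokine. Cells of each genotype received PBS (UT) or lipopolysaccharide (LPS), an endotoxin of Gram-negative bacteria, for 6 hr, and each of the 4 groups (KO UT, KO LPS, WT UT and WT LPS) held 3 libraries. By the methods of the study all mice were young adult males, the KO line was bred from homozygous pairs and C57BL/6 mice were bought, whereas the labels call the controls littermates. A difference between the genotypes thus cannot be told apart from one between these mouse colonies. The deletion was present in every cell of the KO animals, and cells of both genotypes had been grown in L929-conditioned medium. Nothing states which libraries came from separate animals, so p-values measure the spread between libraries, which may be technical.

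Clustered histone genes encode the core histones H2A, H2B, H3 and H4, which form the nucleosome, and the linker histones H1, which bind the DNA between nucleosomes. Most are replication-dependent. Their mRNAs accumulate in S phase, carry no poly(A) tail and end after a conserved stem-loop that the stem-loop binding protein SLBP recognizes. Libraries made from total RNA hold such mRNAs, while selection for poly(A) would lose most of them. LPS is known to halt the division of macrophages in culture.

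The stem-loops are shown because this 3′ end sets these mRNAs apart from nearly all others. Of the 68 members, 44 had a stem-loop in an annotated GENCODE transcript. The commonest sequence was shared by 24 members of the H1, H2A, H2B and H3 types, and none of the 12 H4 stem-loops began with the GGCTC of the 32 others. The examples below cover all types, with Hist1h4b for a rarer H4 stem, in mRNA sense 5′ to 3′, with the stem-loop in capitals. Their annotated transcripts run on past the stem-loop, by 28 bases in Hist1h4b and up to 1861 in Hist1h2be. The exon lengths used below for levels per kb include such bases. The genes lie at chr13:23738808-23740367 (Hist1h1c), chr3:96220361-96220880 (Hist2h2ac), chr13:23583670-23621124 (Hist1h2be), chr13:23561534-23562369 (Hist1h3e), chr13:23581598-23582735 (Hist1h4d) and chr13:23757013-23757409 (Hist1h4b) of GRCm38.
Hist1h1c: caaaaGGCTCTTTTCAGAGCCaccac
Hist2h2ac: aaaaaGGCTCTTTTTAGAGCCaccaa
Hist1h2be: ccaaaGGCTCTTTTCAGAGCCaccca
Hist1h3e: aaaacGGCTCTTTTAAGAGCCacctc
Hist1h4d: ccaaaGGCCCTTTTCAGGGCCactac
Hist1h4b: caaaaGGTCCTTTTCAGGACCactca

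The promoters are shown because the results are given by histone type, and the types differ in their promoter motifs. RefSeq windows around the start site (build GRCm38.p6) were matched to 60 members, 61 windows in all. They were searched on both strands for the motifs below, none of which contains another. The H4 element, GGTCCG, was found in 11 of 12 H4 windows against 8.3% of all 32851 promoters. The CCAAT box, CCAAT, was found in every window of the other types but in 3 of 12 H4 windows, against 37.4% of all promoters. The H1 box, AAACACA, was found in 5 of 6 H1 windows against 7.2% of all promoters. The octamer, ATTTGCAT, was found in 7 of 18 H2A windows and 6 of 15 H2B windows against 1.7%, and the TATA box, TATAAA, in 35 of 61 member windows against 13.6%. A match says only that these letters are in the window. Motifs are in capitals for Hist1h1c (chr13:23738557-23738856 on the plus strand), the most counted H1 gene, Hist1h4d (chr13:23581318-23581617 on the plus strand), the most counted H4 gene, and Hist1h4n (chr13:21832148-21832447 on the minus strand), an H4 gene that differed between the genotypes after LPS.
Hist1h1c: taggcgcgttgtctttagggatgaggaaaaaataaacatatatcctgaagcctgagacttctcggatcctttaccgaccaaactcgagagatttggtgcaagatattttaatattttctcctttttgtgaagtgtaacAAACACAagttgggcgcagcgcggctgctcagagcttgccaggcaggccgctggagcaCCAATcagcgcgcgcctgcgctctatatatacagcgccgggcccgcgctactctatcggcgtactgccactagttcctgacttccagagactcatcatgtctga
Hist1h4d: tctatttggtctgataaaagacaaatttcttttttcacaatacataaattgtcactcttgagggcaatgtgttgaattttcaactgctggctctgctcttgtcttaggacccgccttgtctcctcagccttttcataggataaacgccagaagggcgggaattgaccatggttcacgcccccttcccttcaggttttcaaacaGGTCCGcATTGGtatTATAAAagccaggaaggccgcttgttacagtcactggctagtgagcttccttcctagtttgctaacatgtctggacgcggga
Hist1h4n: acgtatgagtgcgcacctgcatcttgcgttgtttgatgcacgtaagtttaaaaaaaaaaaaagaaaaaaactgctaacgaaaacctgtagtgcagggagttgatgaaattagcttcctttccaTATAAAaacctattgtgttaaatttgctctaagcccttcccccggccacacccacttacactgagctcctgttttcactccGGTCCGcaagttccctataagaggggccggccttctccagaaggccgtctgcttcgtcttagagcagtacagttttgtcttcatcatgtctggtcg

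Library totals were 26154533 to 36423921 counts, and members received 12922 to 67305 counts per library. Of the 68 members, 60 passed the filter on low counts and were tested among 15523 genes. The other 8 had 25 counts or fewer over all libraries, and Hist1h2aa, Hist2h2aa1 and Hist2h3c1 had 0. Tnf was lower in KO than in WT both without LPS (9.71 against 15.3 CPM) and after LPS (432 against 889.7 CPM). Several summed marker lists moved with the groups. The sum of the 7 macrophage markers, mostly Lyz2, was higher in KO than in WT without overlap, at 28398 to 29435 CPM in WT UT, 32580 to 33679 in KO UT, 24434 to 25939 in WT LPS and 27051 to 28720 in KO LPS, whereas Csf1r alone was at 2448 CPM in WT UT and 2242 in KO UT as group means. The 7 markers of neutrophils and their precursors were at 20.5 to 22.01 CPM in WT UT, 42.6 to 48.1 in KO UT, 50.5 to 79.6 in WT LPS and 67.3 to 76.8 in KO LPS. In WT the rise with LPS was mostly S100a8, with group means of 7.32 CPM in WT UT and 52.7 in WT LPS. Camp and Mpo were also higher in WT LPS than in WT UT, whereas S100a9, Elane, Ltf and Ngp were lower. The 3 megakaryocyte markers were at 22.1 to 24.02 CPM in WT UT, 36.3 to 43.1 in KO UT, 50.9 to 75.3 in WT LPS and 70.5 to 73.5 in KO LPS, mostly from Pf4. The 7 fibroblast markers were at 3.02 to 6.26 CPM in WT LPS and 10.1 to 12.3 in KO LPS, and overlapped without LPS. B and T cell lists summed to at most 1.79 CPM, and 4 of 6 erythroid markers were at 0. Levels are given as CPM, counts scaled to library size with TMM factors.

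The libraries also differed in small structured RNAs, such as snRNAs, snoRNAs and the 7SK and 7SL class. These took 3.00 to 3.25% of counts in WT UT, 6.64 to 7.98% in KO UT and 3.23 to 3.43% in KO LPS. In WT LPS they took 4.04%, 5.36% and 6.89% in replicates 1, 2 and 3. Summed histone RNA was highest in the KO UT libraries and, within WT LPS, ordered as this share, as the plot of both by library shows. The main counts and medians of fitted fold changes are therefore given also from a fit with the share as a covariate, as are, in the genotype comparisons, values of the members named as past the adjusted p. That fit is less precise, with a median SE over members of 0.397 against 0.159 in KO UT against WT UT and of 0.617 against 0.277 in the interaction, so a call lost in it can leave the fold change in place. With group means in that fit, the adjustment rests on the spread of the share within groups, which was widest in WT LPS. The shares of KO UT overlap neither those of WT UT nor those of KO LPS. Covariate values in those comparisons and in the interaction are therefore extrapolated. Summed levels are not adjusted for the share. What sets the share was not tested. In bulk RNA, fewer cells of a type and less RNA per cell cannot be told apart.

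**Figure D1:**
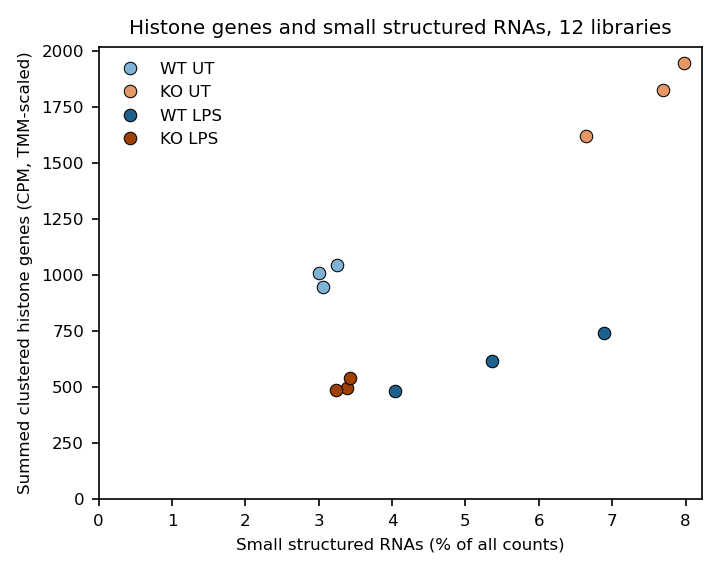
Summed counts of the 68 clustered histone genes (y axis, CPM after TMM scaling) against the share of all counts on small structured RNAs (x axis, %), one point per library in 4 groups. The 3 KO UT libraries are highest on the y axis at shares of 6.64 to 7.98%, and the WT LPS libraries spread from 484 to 740 CPM as their share goes from 4.04% to 6.89%.

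The summed level of all members gave the first view of the 4 groups. It was 1047, 949 and 1011 CPM in WT UT and 1946, 1829 and 1620 CPM in KO UT. After LPS it was 484, 618.3 and 740 CPM in WT and 495, 543 and 489 CPM in KO. Histone RNA was thus highest in the KO UT libraries and lower in all LPS libraries than in any UT library, while the WT LPS and KO LPS libraries overlapped. The group means were 1002 ± 49.6 (WT UT), 1798 ± 165 (KO UT), 614 ± 128 (WT LPS) and 509 ± 29.2 CPM (KO LPS; SD, n = 3 each). KO UT was 1.79-fold above WT UT, WT LPS 1.63-fold below WT UT and KO LPS 3.53-fold below KO UT.

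**Figure D2:**
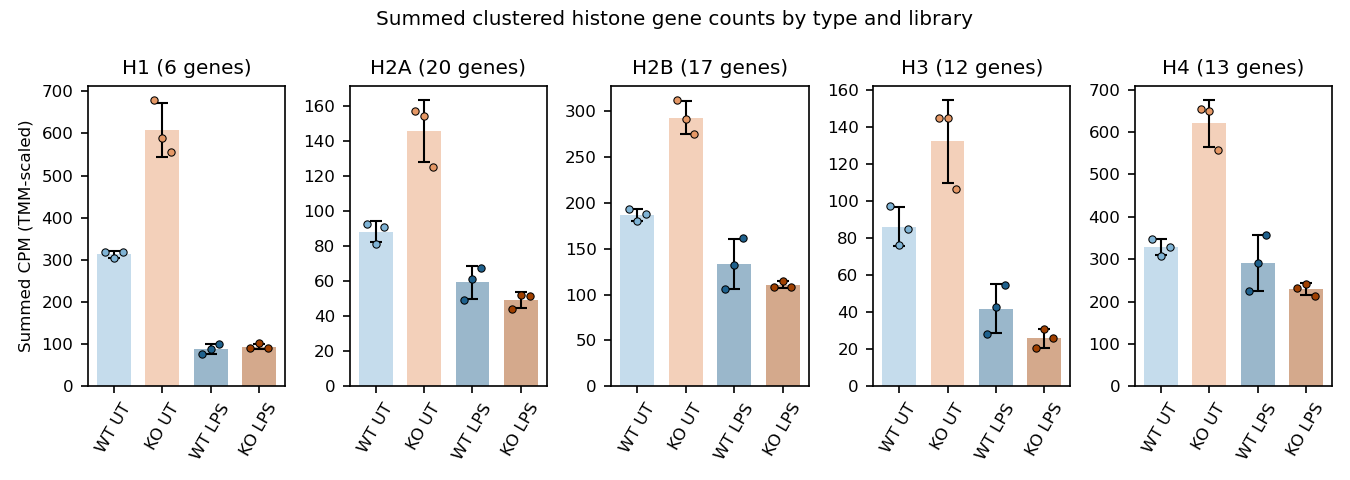
Summed CPM of each histone type (one panel per type, y axes from 0), with a point per library, the mean of 3 libraries as a bar and the SD as an error bar. In every panel the 3 KO UT libraries lie above the 3 WT UT libraries, and H1 falls from 313 to 88.6 CPM with LPS in WT while H4 is at 328 and 291 CPM.

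The shares of H4 and H1 in histone RNA differed more between UT and LPS libraries than between the genotypes. H4 genes held 32.7 ± 0.348% of member counts in WT UT and 34.5 ± 0.975% in KO UT, and 47.2 ± 0.981% in WT LPS and 44.9 ± 1.54% in KO LPS (SD, n = 3). H1 genes held 31.2 ± 0.837% and 33.8 ± 1.41% without LPS, and 14.6 ± 1.16% and 18.5 ± 0.265% after it. The 6 LPS libraries and the 6 UT libraries did not overlap in either share. H2B held 16.3 to 21.8%, H2A 8.07 to 9.71% and H3 5.07 to 8.58% of member counts as group means. Per kb of exon, a scale on which genes of different length can be compared, Hist1h4h, an H4 gene, was highest in WT UT (114 CPM per kb), followed by Hist1h1c. The first 4 places were H4 genes in both LPS groups, led by Hist1h4h at 85.2 CPM per kb in WT LPS and by Hist1h4d at 67.5 CPM per kb in KO LPS.

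To determine whether histone genes differed between the genotypes before stimulation, KO UT was compared with WT UT. Of the 60 members tested, 11 were called higher in KO UT, and 0 lower, where a call needs an edgeR adjusted p under 0.05 together with a log2 change of more than 1 in size. Over all genes tested, 1.02% were called higher and 0.799% lower. At any fold change 44 members were past the adjusted p higher and 0 lower, against 14.1% and 9.69% of all genes. In 46 members all KO UT libraries lay above all WT UT libraries, against 21.6% of all genes. The median log2 fold change was 0.74 over members and 0.00 over all genes.

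With the small RNA share as a covariate, the median over members was -0.17, 23 of 60 were higher, and 6 were past the adjusted p, 2 higher and 4 lower, against 3.96% and 1.58% of all genes. Of these 1 was called higher and 2 lower, against 0.251% and 0.464%. The 2 past the adjusted p and higher were Hist1h1c and Hist1h4i. The 4 past it and lower were the H3 genes Hist1h3a, Hist1h3c and Hist1h3f and the H4 gene Hist1h4j. By type the medians of that fit were 0.18 for H1, -0.07 for H2A, -0.12 for H2B, -1.0005 for H3 and -0.05 for H4. Without KO UT replicate 1, the library with the highest small RNA share, 6 members were called. DESeq2 called 7 of the 55 members to which it gave an adjusted p. Summed macrophage, neutrophil and megakaryocyte markers were also higher in KO UT (values above), and their part in the result was not tested.

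**Figure D3:**
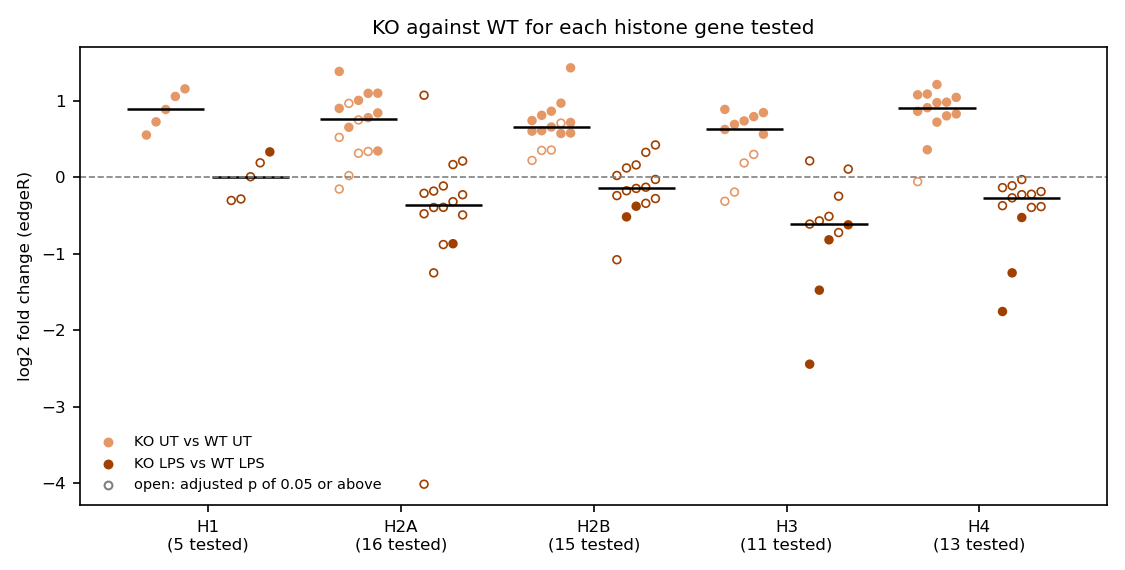
Log2 fold change of KO against WT for each tested member (y axis), by histone type (x axis), without LPS (light points) and after LPS (dark points), with filled points past the adjusted p and a bar at each median. Without LPS the medians lie between 0.63 (H3) and 0.91 (H4), and after LPS between -0.61 (H3) and 0.01 (H1). In the covariate fit the median without LPS is -0.17 over members, and the lowest H2A point, Hist1h2ah, has 0 counts in every KO LPS library.

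Among linker histones, all 5 tested H1 genes were past the adjusted p in KO UT, and 2 were called. Hist1h1c, the H1.2 gene, was at 156, 156 and 161 CPM in WT UT and 329, 274 and 271 CPM in KO UT. The groups did not overlap (log2 fold change 0.89, SE 0.0730, edgeR adjusted p 2.22e-08), and its change stayed past the adjusted p with the covariate (0.56, adjusted p 0.0362). Hist1h1e, the H1.4 gene, was at 73.7, 65.4 and 70.7 CPM in WT UT and 177, 153 and 138 CPM in KO UT (log2 fold change 1.16, edgeR adjusted p 8.42e-08), and with the covariate it did not pass (0.18, adjusted p 0.592). Hist1h1d, the H1.3 gene, rose by 1.06 on the log2 scale and did not pass with the covariate either (0.30, adjusted p 0.394). Hist1h1e and Hist1h2be overlap on the same strand in the annotation, so their reads cannot be fully told apart.

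Among H4 genes, 12 of 13 were past the adjusted p in KO UT and 4 were called, Hist4h4, Hist1h4i, Hist1h4h and Hist1h4c. Hist4h4, the single gene of the Hist4 cluster, was at 10.2, 8.80 and 10.2 CPM in WT UT and 23.0, 24.1 and 20.8 CPM in KO UT. All KO UT libraries lay above all WT UT libraries, and the log2 fold change of 1.21 (SE 0.107, edgeR adjusted p 6.10e-08) was the largest among members with a mean CPM of at least 1. With the covariate its value was 0.46 (adjusted p 0.370), and those of Hist1h4c and Hist1h4h were 0.13 and -0.0499 (adjusted p 0.720 and 0.909). Hist1h4i was at 5.01, 5.14 and 4.98 CPM in WT UT and 10.9, 10.7 and 10.6 CPM in KO UT, a spread small against the difference (log2 fold change 1.09, edgeR adjusted p 7.25e-07). It was the only H4 gene past the adjusted p and higher with the covariate (1.06, adjusted p 0.0461). Hist1h4d, the most counted H4 gene, rose by 0.91, and with the covariate its value was -0.21 (adjusted p 0.385). Hist1h4m, with at most 39 counts per library, was the H4 gene that did not pass (log2 fold change -0.06).

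H2A, H2B and H3 genes had smaller medians, 0.77, 0.66 and 0.63. Of 16 H2A genes tested 9 were past the adjusted p and 4 were called, Hist2h2ab, Hist2h2aa2, Hist1h2ac and the pseudogene Hist1h2al. Hist2h2ab was at 3.88, 2.87 and 2.91 CPM in WT UT and 8.01, 7.37 and 5.36 CPM in KO UT (log2 fold change 1.10, edgeR adjusted p 7.09e-05), and with the covariate its value was 0.19 (adjusted p 0.885). The other 3 H2A calls did not pass with the covariate either, with Hist2h2aa2 going from 1.10 to 0.65 (adjusted p 0.616) and Hist1h2ac from 1.01 to -0.25 (adjusted p 0.859), whereas Hist1h2al kept its size, 1.38 without and 1.58 with the covariate (adjusted p 0.626). Hist1h2al did not pass without KO UT replicate 1 or 2 or WT UT replicate 2 (adjusted p 0.0751 to 0.109). Hist2h2aa2 has 0% unique short sequence windows in the annotated transcripts, so its counts cannot be told apart from those of its copies. Of 15 H2B genes 11 were past the adjusted p, and Hist3h2ba was called from at most 89 counts per library (1.43), and with the covariate its value was larger, 1.79, but not past the adjusted p (0.460). Of 11 H3 genes 7 were past the adjusted p and 0 were called, with Hist1h3e at 29.0, 23.3 and 28.5 CPM in WT UT and 48.6, 46.7 and 35.3 CPM in KO UT (with the covariate -0.745, adjusted p 0.119).

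Next, the response of WT cells to LPS was examined. Of the 60 members, 30 were called lower and 0 higher, against 18.7% and 19.1% of all genes. At any fold change 46 were past the adjusted p lower and 3 higher, against 35.3% and 38% of all genes. The median was -1.02 over members and 0.05 over all genes. In the fit with the small RNA covariate the median was -1.52, and 40 were called lower and 0 higher, against 16.9% and 18.2% of all genes. In the same fit 47 were past the adjusted p lower and 0 higher, against 29.7% and 33.5% of all genes. The types differed in size, with medians of -2.30 for H1, -1.16 for H3, -1.10 for H2B, -1.04 for H2A and -0.26 for H4. All 5 H1 genes were called, and 0 of 13 H4 genes. In the covariate fit the medians were -2.71 for H1, -2.09 for H3, -1.56 for H2B, -1.44 for H2A and -0.77 for H4, and 4 of 13 H4 genes were called lower and 9 were past the adjusted p lower.

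Hist1h1c fell from 156, 156 and 161 CPM in WT UT to 35.8, 41.4 and 39.4 CPM in WT LPS (log2 change -2.02, SE 0.0788, edgeR adjusted p 7.53e-16). Larger decreases were seen in Hist1h3g, an H3 gene (-3.52), Hist1h1a, the H1.1 gene (-2.45), Hist1h3a (-2.43), Hist1h1b, the H1.5 gene (-2.32), and Hist1h1d (-2.30), all past the adjusted p. Hist1h3g was low, with 4, 4 and 10 counts in WT LPS. Hist1h4d, in contrast, was at 87.4, 77.4 and 80.8 CPM in WT UT and 66.4, 89.4 and 114 CPM in WT LPS. Its groups overlapped, and the difference was not past the adjusted p (log2 fold change 0.13, edgeR adjusted p 0.314). WT LPS replicate 3, the library with the highest small RNA share of its group, had the highest level of Hist1h4d and replicate 1 the lowest.

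The 3 members past the adjusted p and higher with LPS were Hist1h2be, Hist1h4i and Hist1h4n. Hist1h2be, an H2B gene, was at 36.9, 32.3 and 35.7 CPM in WT UT and 38.3, 49.7 and 60.8 CPM in WT LPS (log2 fold change 0.50, edgeR adjusted p 5.23e-04). The lowest LPS library lay close to the UT libraries. With the covariate the values of Hist1h2be, Hist1h4n and Hist1h4i were -0.07, -0.13 and 0.33, and none passed (adjusted p 0.526, 0.382 and 0.154). With upper-quartile scaling neither Hist1h4i nor Hist1h4n passed (adjusted p 0.243 and 0.342). Hist1h4i did not pass without WT LPS replicate 2 (adjusted p 0.0741), nor Hist1h4n without WT LPS replicate 3 or WT UT replicate 2 (adjusted p 0.0921 to 0.215).

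**Figure D4:**
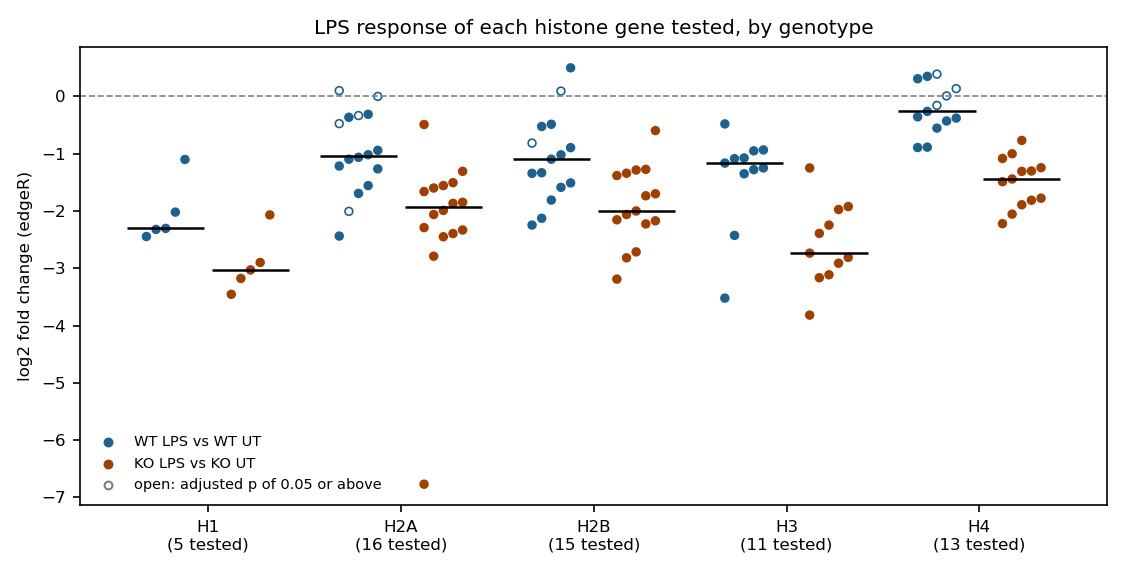
Log2 fold change of LPS against UT for each tested member (y axis) by histone type (x axis), in WT (blue) and KO (brown), with filled points past the adjusted p and a bar at each median. In WT the medians run from -2.30 (H1) to -0.26 (H4), and in KO from -3.03 (H1) to -1.44 (H4), against -2.71 to -0.77 and -2.46 to -0.69 in the covariate fit, which is not drawn. The lowest H2A point, Hist1h2ah, has 0 counts in every KO LPS library, and its place depends on the prior count.

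In KO cells histone genes of every type were lower after LPS. Of the 60 members 57 were called lower and 0 higher, against 19.3% and 17.7% of all genes, and 60 were past the adjusted p lower, against 37.7%. The median was -1.996 over members and -0.06 over all genes, with medians by type of -3.03 for H1, -2.74 for H3, -2.001 for H2B, -1.93 for H2A and -1.44 for H4. Hist1h2ah had 0 counts in every KO LPS library and was at least 3.69-fold lower than in KO UT, against a floor of 3 counts per library, and with it at that bound the medians were -1.98 over members and -1.88 for H2A. The covariate fit called 24 members lower and 0 higher, against 14.6% and 14.5% of all genes, and put 36 past the adjusted p, 35 lower and 1 higher, against 23.6% and 24.6% of all genes, and the median was -1.01. Its medians by type were -2.46 for H1, -1.27 for H2B, -1.01 for H2A, -0.89 for H3 and -0.69 for H4, so that H3 went from the second to the fourth place. The 1 member higher with the covariate was Hist1h2be (0.37, adjusted p 0.0255), which fell by 0.60 without the covariate.

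Hist1h1c went from 329, 274 and 271 CPM in KO UT to 36.1, 42.4 and 38.7 CPM in KO LPS (log2 change -2.90, SE 0.0801, edgeR adjusted p 1.495e-18). The levels after LPS overlapped those of the WT LPS libraries. The largest decreases among members with a mean CPM of at least 1 were in the H3 gene Hist1h3b (-3.82), Hist1h1a (-3.45), the H2B gene Hist1h2bl (-3.19), Hist1h1b (-3.18) and Hist1h3a (-3.17). With the covariate Hist1h3a was at -0.85 and not past the adjusted p (0.148), whereas the other 4 were at -2.84 to -1.76 and past it. The KO UT libraries, high in small RNAs, are the reference of this comparison as well as of the one with WT UT.

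The genotypes were then compared after LPS. Of the 60 members 4 were called lower and 0 higher, against 0.664% and 0.586% of all genes. At any fold change 10 were past the adjusted p lower and 1 higher, against 6.54% and 7.78% of all genes. The median was -0.27 over members, and -0.27 also without Hist1h2ah, for which both groups were at or under the floor in all but 1 library. Summed macrophage and fibroblast markers were higher in KO LPS than in WT LPS (values above), and their part was not tested. The count at any fold change rested on single libraries. It was 22 without WT LPS replicate 1, 4 without WT LPS replicate 2, 7 without WT LPS replicate 3, 6 without KO LPS replicate 1 and 7 without KO LPS replicate 3. In the covariate fit 42 of 60 were higher (median 0.15), and 6 were past the adjusted p, 5 higher and 1 lower, against 4.17% and 4.58% of all genes, and 1 was called higher and 0 lower, against 0.335% and 0.329%. The 5 higher members were Hist1h3a (1.38, adjusted p 0.00899), which was called, Hist1h1d (0.69, adjusted p 1.11e-04), Hist1h1e (0.67, adjusted p 1.01e-05), Hist1h4d (0.34, adjusted p 0.00269) and Hist1h4c (0.32, adjusted p 0.0248).

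The lower member in that fit was Hist1h4n, an H4 gene at chr13:21831767-21832196. It was at 28.6, 24.1 and 27.1 CPM in WT UT, 31.8, 37.4 and 33.4 CPM in KO UT, 26.0, 32.7 and 40.4 CPM in WT LPS and 14.2, 14.4 and 12.95 CPM in KO LPS. The KO LPS libraries lay below all others, and those of WT LPS were spread as their small RNA shares were. The log2 fold change of KO LPS against WT LPS was -1.25 with an SE of 0.121 (edgeR adjusted p 6.32e-07), and over the alternatives it ranged from -1.40 to -0.86 with adjusted p of at most 1.23e-04. With the covariate it was -0.86 (adjusted p 1.89e-05), short of the fold change threshold. Of its short sequence windows 19.4% are unique among annotated transcripts, and Hist1h4m, another H4 gene with 11.9% unique windows, was called lower too (-1.75, edgeR adjusted p 0.0159, from 18 to 24 counts in WT LPS and 5 to 8 in KO LPS). Reads of such copies cannot be fully told apart. Without KO LPS replicate 1 or WT LPS replicate 3 Hist1h4m was not past the adjusted p, nor was it with the covariate (adjusted p 0.141), while its value stayed at -1.58, -1.56 and -1.67.

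The other 2 calls were H3 genes. Hist1h3c was at 2.24, 3.37 and 4.90 CPM in WT LPS and 1.34, 1.31 and 1.06 CPM in KO LPS without overlap (log2 change -1.47, SE 0.274, edgeR adjusted p 0.00104), and with the covariate it did not pass (-0.60, adjusted p 0.196). Hist1h3b had 14, 37 and 30 counts in WT LPS and 11, 0 and 6 in KO LPS (log2 fold change -2.44, edgeR adjusted p 0.00848), and it was past the adjusted p neither without WT LPS replicate 2 (-2.11, adjusted p 0.0535) nor with the covariate (-1.86, adjusted p 0.108). Below the fold change threshold, Hist2h2ab fell by 0.87 and Hist1h3f, an H3 gene, by 0.82, and with the covariate neither passed (-0.44 and -0.0832, adjusted p 0.402 and 0.811). Without WT LPS replicate 2 or KO LPS replicate 3 Hist2h2ab was not past the adjusted p. Hist1h1d was the 1 member higher (0.33, edgeR adjusted p 0.0401). It did not pass with any of 5 single libraries left out, all but WT LPS replicate 3 (adjusted p 0.0619 to 0.147), or with a replicate block (adjusted p 0.0570). Nor did it pass with upper-quartile scaling, a filter on mean CPM, protein-coding genes only or only the groups compared (adjusted p 0.0503 to 0.0845). With the covariate it was larger (0.69, adjusted p 1.11e-04). Hist1h2be (-0.38) and Hist1h3e (-0.62) also did not pass with the block (adjusted p 0.0644 and 0.0663), with 5 and 4 of the 6 single libraries left out, or with the covariate (0.13 and 0.10, adjusted p 0.406 and 0.816).

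The difference between the KO effect after LPS and that without LPS was tested as an interaction. Of the 60 members 28 were called lower and 0 higher, against 1.64% and 0.522% of all genes. At any fold change 37 were past the adjusted p lower and 0 higher, against 9.5% and 7.32%. The median was -1.09 over members and -0.01 over all genes. By type, 12 of 13 H4, 7 of 11 H3, 6 of 16 H2A, 2 of 15 H2B and 1 of 5 H1 genes were called. The largest values among members with a mean CPM of at least 1 were those of Hist1h3b (-2.74), Hist2h2ab (-1.97), Hist1h3c (-1.66), Hist1h4n (-1.61) and Hist1h4h (-1.46). In the covariate fit these were -1.03, -0.63, 0.95, -0.44 and 0.24, with adjusted p of 0.538 to 0.826.

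Hist1h4h, for example, was at 54.9, 52.0 and 54.2 CPM in WT UT and 115, 124 and 101.1 CPM in KO UT, and at 29.4, 39.2 and 51.6 CPM in WT LPS and 30.6, 33.4 and 27.7 CPM in KO LPS. Its genotypes differed without overlap before LPS and overlapped after it. With the small RNA covariate 1 member was past the adjusted p in the interaction, Hist1h3a, which was higher (2.98, adjusted p 0.0417), against 0.477% of all genes, and 37 of 60 were higher (median 0.21). Lower in that fit were 0 members past the adjusted p, against 0.728% of all genes, and Hist1h3a was the 1 member called, against 0.135% of all genes in each direction. Of the 28 members called without the covariate, 12 were lower and 16 higher in that fit, and Hist1h4i (-1.07) and Hist1h3b (-1.03) stayed beyond the fold change threshold. In the replicate block Hist1h2ag and Hist1h3d did not pass (adjusted p 0.0684 and 0.0672). Of the 28 calls, Hist1h2ag and Hist1h3d also lost the adjusted p in 9 and Hist2h3b in 8 of the 12 fits that leave out a library (adjusted p 0.0607 to 0.131, 0.0515 to 0.137 and 0.0609 to 0.113). The interaction and the 4 comparisons share libraries, with KO UT in 3 of the 5, so their values are not independent.

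Position, annotated 3′ end and copy number were compared as descriptions. In KO UT against WT UT the medians were 0.72 in Hist1, 0.77 in Hist2 and 0.97 over the 3 genes of Hist3. The Hist1 genes lie in 2 blocks on chromosome 13 apart from the pseudogene Hist1h2al (chr13:51202727-51203065), and the first block, with 20 tested genes, had a median of 0.66 and the second, with 27, one of 0.73. With the small RNA covariate the medians were -0.20 in Hist1, 0.20 in Hist2 and 0.88 in Hist3, and -0.21 and -0.13 in the blocks. Summed, the first block was at 75.8, 98.8 and 120 CPM in WT LPS and 67.7, 70.7 and 62.6 CPM in KO LPS, without overlap, whereas the second block overlapped. Hist1h4n lies in the first block, and its lower level in KO LPS (values above) makes up much of this difference. No difference by position can therefore be read from these sums. Members with a stem-loop in an annotated transcript fell less with LPS in WT than those without one there. The medians were -0.89 over 40 and -1.43 over 20 genes, and -1.39 and -1.89 with the covariate. The first set held most H4 genes and the second set 2 of the 5 tested H1 genes. Within types the medians of members with and without one were -0.94 (9 genes) and -1.56 (7) in H2A, -0.96 (8) and -1.51 (7) in H2B and -1.08 (8) and -1.28 (3) in H3. With the covariate these were -1.15 and -1.59, -1.48 and -1.85, and -1.91 and -2.09. These differences were not tested. A stem-loop absent from the annotation does not show that the gene lacks one, since annotated transcripts can be short, such as that of Hist1h2bl at 381 bases. Members with at least 50% unique windows had a median of 0.80 in KO UT against WT UT over 36 genes, and the 24 others one of 0.61, and with the covariate these were -0.05 and -0.21. Of the 68 members 26 were overlapped by another annotated gene, and how such reads were assigned is not given in the sources used here.

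Finally, genes that act with the clustered histones were examined. Of 27 S phase and replication genes 1 was past the adjusted p higher in KO UT than in WT UT and 6 lower, against 14.1% and 9.69% of all genes (median -0.11, 0 called). Of 12 genes of G2 and mitosis 0 were higher and 8 lower (median -0.68). The covariate fit put 1 S phase gene past the adjusted p higher and 0 lower (median -0.18), and 0 and 1 genes of G2 and mitosis (median -0.84), against 3.96% and 1.58% of all genes. The median of the clustered histones was 0.74 without the covariate and -0.17 with it. Pcna, the DNA polymerase clamp, rose by 0.43 (edgeR adjusted p 6.36e-06), and by 0.43 with the covariate (adjusted p 0.0270). Mki67, a proliferation marker, fell by 0.96 (adjusted p 7.13e-09), and by 0.59 with the covariate (adjusted p 0.0113). Ccna2, the S phase cyclin, fell by 0.71 (adjusted p 1.87e-04), and with the covariate its value was 0.22 (adjusted p 0.840). With LPS 21 of the 27 S phase genes were called lower in WT and 21 in KO, against 18.7% and 19.3% of all genes. With the covariate these counts were 21 and 18, against 16.9% and 14.6%. Among them were E2f2, a transcription factor of the cell cycle (-5.65 in WT), and Mcm2, a subunit of the replicative helicase (-3.45 in WT). Called higher were 0 in WT and 1 in KO, against 19.1% and 17.7%. Of the 12 genes of G2 and mitosis 11 were called lower with LPS in KO, whereas Mki67 was called higher (1.45, edgeR adjusted p 1.08e-13).

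**Figure D5:**
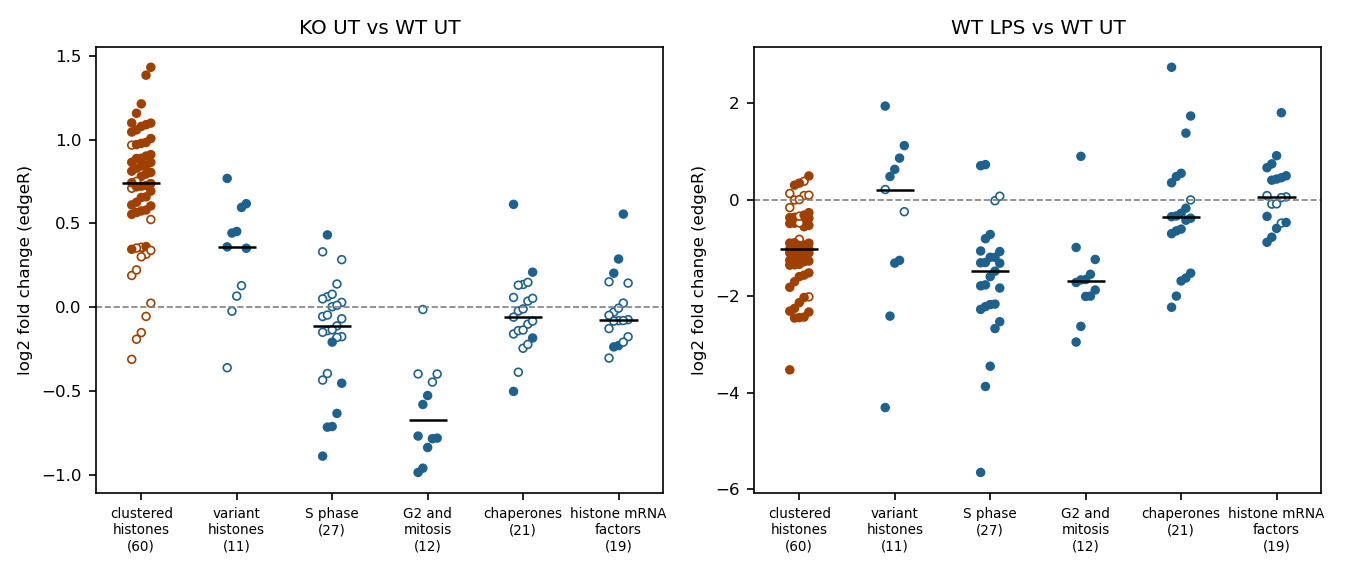
Log2 fold change (y axis) of the 60 tested clustered histone genes and of 5 related gene lists (x axis, number tested in brackets), for KO UT against WT UT (left) and WT LPS against WT UT (right), with filled points past the adjusted p and a bar at each median. On the left the clustered histones lie at a median of 0.74 and the genes of G2 and mitosis at -0.68 (-0.17 and -0.84 in the covariate fit, not drawn), and on the right both lie below 0, at -1.02 and -1.68.

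Factors for making histone mRNA were examined next. Of 19 tested factors for its transcription and 3′ end, 0 were called in KO UT against WT UT, 3 were past the adjusted p higher and 2 lower, against 14.1% and 9.69% of all genes. With the small RNA covariate 2 were past the adjusted p higher and 0 lower, against 3.96% and 1.58% of all genes. These were Slbp and Cstf2, a cleavage stimulation factor (1.13, adjusted p 2.82e-05). Slbp, the gene for the stem-loop binding protein, was among the higher (0.20, edgeR adjusted p 0.0380), and in the covariate fit it was at 0.52 (adjusted p 0.0423). Lsm1 (0.56), a decapping cofactor, and Lsm10 (0.29), a subunit of the U7 particle that cuts histone pre-mRNA, were higher too, and neither passed with the covariate (0.22 and -0.0043, adjusted p 0.643 and 0.998). Hinfp, a transcription factor of H4 genes, fell by 0.24 in KO UT and did not pass with the covariate (-0.39, adjusted p 0.208). It rose with LPS by 1.81 in WT and 1.61 in KO. Slbp and Cstf2 were named after their values had been seen.

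Among histone chaperones in KO UT, 2 of 21 were past the adjusted p higher and 2 lower, against 14.1% and 9.69% of all genes. Tonsl, which reads newly made H4, rose by 0.61 (edgeR adjusted p 1.26e-06), and Daxx, a chaperone of H3.3, fell by 0.50 (adjusted p 2.28e-06). In the covariate fit 4 of the 21 were past the adjusted p higher and 0 lower, against 3.96% and 1.58% of all genes. Neither Tonsl (0.15, adjusted p 0.540) nor Daxx (-0.38, adjusted p 0.0554) was past it. Of 11 tested variant histone genes outside the clusters 7 were past the adjusted p higher in KO UT and 0 lower (median 0.36), against 14.1% and 9.69% of all genes, among them H2afj (0.77), H1f0 (0.62) and H2afv (0.60). With the covariate 2 of the 11 were past it higher and 0 lower (median 0.07), against 3.96% and 1.58% of all genes. In that fit H1f0 was at 0.54 (adjusted p 0.0449), H2afj at -0.66 (adjusted p 0.0537) and H2afv at -0.14 (adjusted p 0.863). H1f0, the H1.0 gene, was higher in KO after LPS too (0.71, edgeR adjusted p 7.83e-07), also with the covariate (0.75, adjusted p 3.96e-06). In the interaction 8 of the 11 were past the adjusted p lower, against 9.5% of all genes, and H2afj (-1.22) and H2afv (-1.14) were called. With the covariate 0 of the 11 passed in the edgeR interaction test and 1 had an unadjusted p under 0.05, with H2afj at 0.91 (adjusted p 0.145) and H2afv at -0.0499 (adjusted p 0.986).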

How the data were processed

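RNA was measured by total RNA-seq in 12 libraries, 3 for each of 4 groups taken from the labels. The deposited file holds raw counts per gene, which the authors made from paired-end reads with HISAT2 2.1.0 and featureCounts 2.0.0 on GRCm38, and per the submitters' processing notes FastQC 0.11.9 and SAMtools 1.17 were used as well. The annotation release, strand setting and treatment of multi-mapping reads are not given in the sources used here, and reads of near-identical histone copies may have been dropped or split by them. Of the 48526 gene identifiers, 48144 matched GENCODE M21.

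Counts were fitted with edgeR 4.0.16 (R 4.3.3, limma 3.58.1) by the quasi-likelihood test on 4 group means with TMM scaling. The filterByExpr step (minimum count 10, minimum total 15) left 15523 genes, over which p-values were adjusted by Benjamini-Hochberg. Totals were 26154533 to 36423921 counts per library, with a common biological coefficient of variation of 0.0712. A call needed an adjusted p below 0.05 and a log2 fold change beyond 1 in either direction. Summed levels have no test. The script was tested on simulated data. Replicates differed by more than sampling noise (lowest chi-square per degree of freedom 3.77).

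The labels give the replicate number as a batch. In 18 pairs of same-numbered libraries of different groups, deviations correlated at -0.0683 to 0.0382.

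Named members were the 2 most counted per type, the 5 largest changes per direction and contrast past the adjusted p whose mean CPM reached 1, and those called in a genotype contrast or the interaction. Of related lists, up to 3 genes per contrast with a mean CPM of at least 5 were named. Members and lists were chosen with earlier results of these data known. Alternatives were other scalings, filters and gene sets, DESeq2 1.42.0, a replicate block, the small RNA share as a covariate, only the groups compared, and leaving out each library. Summing only members with at least 50% unique windows and applying the covariate to related lists and to blocks of members were added after seeing the data. Plots used Python 3.11.15 and matplotlib 3.10.9.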

Additional observations from a re-analysis of the deposited data

Results flagged for a closer look

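The KO effect differed between LPS and UT in 28 members by the edgeR interaction test. Each value below is the log2 KO effect after LPS minus that without LPS, and all 28 were negative. The linker histone gene was Hist1h1a (-1.01). Among H2A genes these were Hist1h2ac (-1.19), Hist1h2ag (-1.19), Hist1h2ai (-1.13), Hist2h2aa2 (-1.31), Hist2h2ab (-1.97) and Hist2h2ac (-1.23), and among H2B genes Hist1h2be (-1.095) and Hist1h2bn (-1.13). The H3 genes were Hist1h3b (-2.74), Hist1h3c (-1.66), Hist1h3d (-1.30), Hist1h3e (-1.31), Hist1h3f (-1.44), Hist1h3h (-1.46) and Hist2h3b (-1.46), with few counts behind Hist1h3b. Without single libraries Hist1h2ag and Hist1h3d did not pass in 9 of 12 fits and Hist2h3b in 8. Of the H4 genes 12 were among them, Hist1h4a (-1.17), Hist1h4b (-1.09), Hist1h4c (-1.18), Hist1h4d (-1.14), Hist1h4f (-1.33) and Hist1h4h (-1.46), as well as Hist1h4i (-1.12), Hist1h4j (-1.22), Hist1h4k (-1.13), Hist1h4n (-1.61), Hist2h4 (-1.09) and Hist4h4 (-1.43). The variant histone genes H2afj (-1.22) and H2afv (-1.14) lie outside the clusters and differed in the same way.

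The small structured RNA share was 6.64 to 7.98% in KO UT and 3.23 to 3.43% in KO LPS, and with it as a covariate 0 of the 28 were past the adjusted p and 1 other member was, Hist1h3a (2.98, adjusted p 0.0417). In that fit, whose median SE was 0.617 against 0.277, 12 of the 28 were lower than 0 and 16 higher, 6 had an unadjusted p under 0.05, and Hist1h4i (-1.07) and Hist1h3b (-1.03) stayed below -1. The variant genes H2afj (0.91, adjusted p 0.145) and H2afv (-0.0499, adjusted p 0.986) did not pass in that fit either.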

How the results depend on the processing

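With the small RNA share as a covariate, counts of members called were 1 in KO LPS against WT LPS, 3 in KO UT against WT UT, 24 in KO LPS against KO UT and 1 in the interaction, and those past the adjusted p at any fold change were 6, 6, 36 and 1. Over the 60 tested members, the covariate turned the direction of 31 log2 fold changes in KO LPS against WT LPS, 37 in KO UT against WT UT, 5 in WT LPS against WT UT, 2 in KO LPS against KO UT and 35 in the interaction. Of the members past the adjusted p without it, 2, 26, 2, 2 and 24 turned, 33 of these being named for that comparison by the rule for named members. In KO LPS against WT LPS these were Hist1h2be 0.13 and Hist1h3e 0.10. In KO UT against WT UT these were Hist2h2ac -0.38, Hist1h2bc -0.05, Hist1h2be -0.31, Hist1h3e -0.745, Hist1h3f -0.83, Hist1h4d -0.21, Hist1h4h -0.0499, Hist1h4n -0.42 and Hist1h2ac -0.25. Hist1h3a (-1.60) and Hist1h4j (-0.88), outside that rule in this comparison, turned too and were past the adjusted p. In WT LPS against WT UT these were Hist1h2be -0.0696 and Hist1h4n -0.13. In KO LPS against KO UT these were Hist1h2be 0.37 and Hist1h4d 0.0568. In the interaction these were Hist1h1e 0.49, Hist2h2ac 0.60, Hist1h2bc 0.0879, Hist1h2be 0.44, Hist1h3e 0.84, Hist1h3f 0.74, Hist1h4d 0.55, Hist1h4h 0.24, Hist1h3c 0.95, Hist1h2ac 0.68, Hist1h4c 0.19, Hist1h3h 0.11, Hist1h4j 1.35, Hist1h4k 0.43, Hist1h2bn 0.0865, Hist1h4f 0.0628, Hist1h3d 1.40 and Hist2h3b 2.23. The cause was not tested, and without LPS the genotypes do not overlap in this share. Covariate values comparing them there are extrapolated from the spread within groups.

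In KO UT against WT UT, DESeq2 called 7 of the 55 members to which it gave an adjusted p, and leaving out single libraries gave 6 to 15 (6 without KO UT replicate 1). In KO LPS against WT LPS, 7 of the 52 members tested were past the adjusted p with only the groups compared, and 4 to 22 members with single libraries left out. Upper-quartile scaling gave -2.01 for the summed level in KO LPS against KO UT, and shifted the median of all genes to -0.14 (WT) and -0.24 (KO) in the LPS contrasts. With the replicate block 8 members were past the adjusted p in KO LPS against WT LPS and 26 were called in the interaction, and the named members that lost their call with it are given in the report with their adjusted p. Under the remaining alternatives no direction turned among the results compared. Low counts limit Hist1h3b, Hist1h4m and Hist3h2ba.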
